A study of Mus musculus with 4 samples.

Results

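The Sox and T-box families are transcription factors that set the identity of cells in the embryo, and they were followed here in rib chondrocytes with and without Eed, a core subunit of Polycomb repressive complex 2 (PRC2). The members were taken by name: every gene of the array whose symbol is Sox or Tbx with a number, or T, Eomes or Tbr1, with 1 probe set for each gene. This gave 35 genes, 19 Sox and 16 T-box, of the 22305 genes with a name on the array. Each of the 35 had a single probe set. RNA came from primary rib chondrocytes of mouse pups 0.5 days old, of a mixed C57BL/6 and 129Sv background, kept overnight in DMEM with 10% FCS. The 4 Affymetrix Mouse Gene ST 1.0 arrays held 2 samples of wild-type cells (Wt 1 and Wt 2) and 2 of cells of Col2-Cre: Eed fl/fl pups (Eed cKO 1 and Eed cKO 2). In the latter a Cre recombinase under a Col2a1 promoter, active in chondrocytes and their progenitors, removes the floxed Eed. The labels name biological duplicates and do not say how many pups each array stands for.

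Sox factors bind DNA through an HMG box and are grouped by letters according to their sequence. Sox9 is the factor that chondrocytes cannot form without, and it acts with Sox5 and Sox6 on the enhancers of cartilage matrix genes. T-box factors share the DNA-binding domain first found in T (brachyury) and mark out the mesoderm, the heart, and the limb and body wall. In embryonic stem cells many genes of both families carry H3K27me3, the silencing mark that PRC2 places.

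Eed itself had signals (intensities on a linear scale) of 3597 and 3530.4 on the Wt arrays and 1057 and 990.3 on the Eed cKO arrays. It fell by 1.77 on the log2 scale (SE 0.07, limma adjusted p = 7.59e-05). Differences are of log2(signal + 32), Eed cKO minus Wt, and "rose" and "fell" are used for an adjusted p under 0.05. Array medians lay between 830.4 and 837. Xist and the Y-linked gene Ddx3y divided the arrays across the groups, with Xist at 17819.7 in Wt 1 and 17196 in Eed cKO 2 against 3634 and 4845 in the other two. All 8 chondrocyte markers had signals of 8284 or more on every array, and Col2a1, the main cartilage collagen, had 36621 to 37633. Of these 8 markers 7 were lower on both Eed cKO arrays, 1 rose and 2 fell. Over all genes 27.7% were lower on both Eed cKO arrays, and of the genes tested 9.63% rose and 5.98% fell. The summed signal of the 8 markers was 188783 and 190421 in Wt and 184718 and 183018 in Eed cKO cells. Bulk arrays cannot tell fewer cells of a type from less RNA per cell.

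The T-box family held the changes, and all of them were increases: Tbx15, Tbx5, Tbx3 and Tbx2 rose in Eed cKO chondrocytes, by 1.32-fold to 2.64-fold. No Sox factor passed the test in either direction, and Sox9 had signals of 27159.8 or more on every array. Genes with a mean signal under 626 over the 4 arrays were left out of the test, which kept 27 of the 35 members, 18 of them Sox and 9 T-box. By limma's adjusted p, 4 of those 27 members rose and 0 fell, which left 23. At an unadjusted p under 0.05 the 9 T-box genes held the same 4 higher and 0 lower, and the 18 Sox genes 1 higher (Sox4) and 1 lower (Sox17). Over all 14944 genes tested, 9.63% rose and 5.98% fell. An unadjusted p under 0.05 was reached by 4554 of them. Whether the families differ from each other or from other genes was not tested.

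The members that were left out were Tbx18, Tbx20, Tbx19, Tbx22, T, Tbr1, Eomes and Sox30. In a fit over all 22305 genes with no such filter Tbx18 and Tbx20 also rose, which made 6 of 35 members higher and 0 lower, against 6.26% and 3.89% of all genes. Counted by arrays alone, both Eed cKO arrays lay above both Wt arrays for 10 of the 16 T-box genes and below them for 2. For the 19 Sox genes the counts were 3 above and 9 below. Over all genes 27.6% lay above and 27.7% below. The median log2 difference was 0.15 for the T-box genes, -0.03 for the Sox genes and 0.00 for all genes, each in the fit without the filter.

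**Figure D1:**
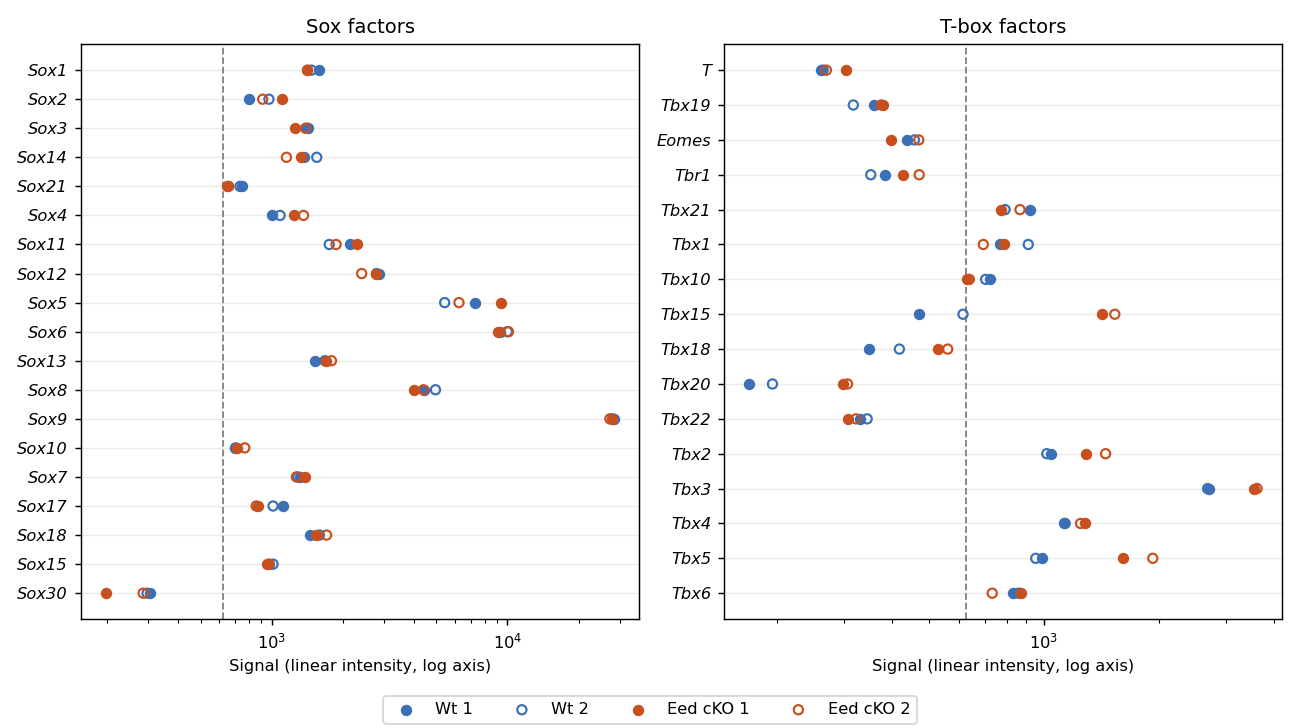
Signal of each Sox gene (left) and T-box gene (right) on each of the 4 arrays, on a log axis; blue points are Wt, orange points Eed cKO, filled for replicate 1 and open for replicate 2, and the dashed line is the filter at a mean signal of 626. The orange points of Tbx15, Tbx5, Tbx3 and Tbx2 all lie to the right of the blue ones, while those of Sox9 and Sox6 lie among or close to them.

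Tbx15, a factor that in the mouse governs the size of limb bones, scapula and other skeletal elements and the pigment pattern of trunk skin, had the largest difference of the 35 members. Its signals were 470.2 and 614 on the Wt arrays and 1416 and 1533 on the Eed cKO arrays. Both Wt arrays lay under the filter value, and the gene was tested because its Eed cKO arrays raised its mean. The log2 difference was 1.40 (SE 0.13, 95% interval 1.10 to 1.70, adjusted p = 0.000979), or 2.64-fold. It also rose in the fit without the filter (adjusted p = 0.000761), so the call does not depend on how the gene entered the test.

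The Tbx2 subfamily has 4 members, Tbx2, Tbx3, Tbx4 and Tbx5, which lie in the genome as neighbouring pairs, Tbx3 beside Tbx5 on chromosome 5 and Tbx2 beside Tbx4 on chromosome 11. For all 4 both Eed cKO arrays were higher than both Wt arrays, and 3 rose. Over all genes 27.6% were higher on both Eed cKO arrays, and 9.63% of the genes tested rose. Tbx5, needed for the forelimb bud and the heart, had 989 and 952 in Wt and 1606 and 1927 in Eed cKO cells. The increase was 0.84 (SE 0.10, 95% interval 0.60 to 1.08, adjusted p = 0.00268), or 1.79-fold. Its 2 Eed cKO arrays stood further apart than its Wt arrays, and the lower of them was still above both Wt arrays.

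Tbx3 and Tbx2 are repressors that act in limb, heart and mammary development and hold back cell senescence. The 2 arrays of a group agreed closely for Tbx3, which had 2705 and 2682 in Wt against 3547 and 3613 in Eed cKO cells. It rose by 0.41 (SE 0.06, 95% interval 0.27 to 0.54, adjusted p = 0.00534). Tbx2 had a log2 difference of nearly the same size from signals of 1047 and 1018 in Wt and 1290.3 and 1450.4 in Eed cKO cells. Its increase was 0.40 (SE 0.09, adjusted p = 0.0235), and this call was lost without Wt 1 (adjusted p = 0.0798) or without Wt 2 (0.116).

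Tbx4, the hindlimb counterpart of Tbx5, did not pass. Its signals were 1128 and 1137 in Wt and 1284 and 1247 in Eed cKO cells, so the groups did not overlap, with a difference of 0.16 (SE 0.07, adjusted p = 0.204). The 95% interval ran from -0.02 to 0.33 and held neither the fitted difference of Tbx2 nor that of Tbx5. Whether Tbx4 differed from them in its response was not tested.

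Tbx18 and Tbx20 belong with Tbx15 to the Tbx1 subfamily, as do Tbx1, Tbx10 and Tbx22. Tbx18 keeps the front and back parts of the somites distinct in the mouse, the division from which the ribs and vertebral pedicles take their pattern. Its signals were 348 and 419 in Wt and 528 and 560.1 in Eed cKO cells. In the fit without the filter it rose by 0.48 (SE 0.11, adjusted p = 0.0355), a call that was lost without Wt 1 (0.227) and without Eed cKO 2 (0.0791). Tbx20, a factor of the developing heart, was named after its values were seen. It had 169 and 195 in Wt and 297 and 306 in Eed cKO cells and rose by 0.64 (SE 0.12, adjusted p = 0.0139), which was lost without Wt 1 (0.0742). These signals are low, and the tables hold no call, for these or any other members, of whether a probe set lies above background. The Wt signals of Tbx15, Tbx5, Tbx2 and Tbx4 also lay below 1169, the median of the mean signals of genes.

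The starts of Tbx18 and Tbx20 are shown. Of the 6 members that rose with or without the filter, these were the ones matched in the RefSeq promoter table. They do not stand for the others. Printed are the 250 bases before the RefSeq start in the mouse assembly GRCm38.p6, both on the minus strand, Tbx18 at chr9:87731261-87731510 and Tbx20 at chr9:24774304-24774553, with each CpG in capitals since CpG-rich starts are where PRC2 is commonly found in mammals.

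Tbx18: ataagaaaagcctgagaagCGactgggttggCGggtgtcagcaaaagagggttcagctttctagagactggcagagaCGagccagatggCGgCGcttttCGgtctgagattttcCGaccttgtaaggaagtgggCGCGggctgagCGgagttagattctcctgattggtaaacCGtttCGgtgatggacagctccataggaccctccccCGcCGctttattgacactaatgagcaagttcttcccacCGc

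Tbx20: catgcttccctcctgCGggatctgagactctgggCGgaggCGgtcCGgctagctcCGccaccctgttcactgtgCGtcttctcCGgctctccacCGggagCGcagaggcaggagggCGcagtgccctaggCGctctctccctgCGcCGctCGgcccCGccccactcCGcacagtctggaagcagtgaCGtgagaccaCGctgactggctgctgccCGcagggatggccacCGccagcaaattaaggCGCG

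The Tbx18 stretch holds 15 CpGs and that of Tbx20 holds 22. With the first 50 bases of the transcript added, the windows of 300 bases hold 15 and 26, and 35.2% and 16.8% of the 27025 genes in the RefSeq table had as many or more at their most upstream start. The table matched 25 of the 35 members, 12 T-box genes with a median of 9 CpGs and 13 Sox genes with a median of 22, against 7 over all genes. Tbx2, Tbx3, Tbx5, Tbx15 and Sox9 were not matched. The T-box motif GGTGTGA (or TCACACC on the other strand) was found in 0 of the 25 windows and in 3.96% of all windows. The core Sox motif ACAAT (or ATTGT) was found in 6 of 25 and in 31.5% of all, and neither motif was in the windows of Tbx18 or Tbx20.

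The other members of the Tbx1 subfamily did not rise. Tbx1, a factor of the pharyngeal arches, had 769 and 910.1 in Wt and 785 and 694 in Eed cKO cells (-0.17, SE 0.11, adjusted p = 0.334). Tbx10 had a difference of -0.16 (adjusted p = 0.210), with both Eed cKO arrays lower. Tbx22, an X-linked gene of the palate, had signals between 307 and 345 on all arrays (-0.09, adjusted p = 0.638 without the filter). In the fit without the filter the 6 genes of the subfamily held 3 that rose and 3 that did not pass.

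The remaining T-box genes are factors of early mesoderm, pituitary, brain and lymphocytes, and none passed the test. T, which is needed for the notochord, had signals of 261 and 264 in Wt and 303 and 269.6 in Eed cKO cells. Tbx19, a pituitary factor, Eomes and the cortical neuron factor Tbr1 lay between 317 and 472 on every array. Tbr1 came nearest to the threshold, with a difference of 0.27 (adjusted p = 0.155 without the filter). Tbx6, which acts in the paraxial mesoderm that gives rise to the ribs, had 733 to 871 (-0.08, SE 0.10, adjusted p = 0.650), and Tbx21, the T-bet factor of T lymphocytes, had 774 to 919 (-0.06, adjusted p = 0.751).

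**Figure D2:**
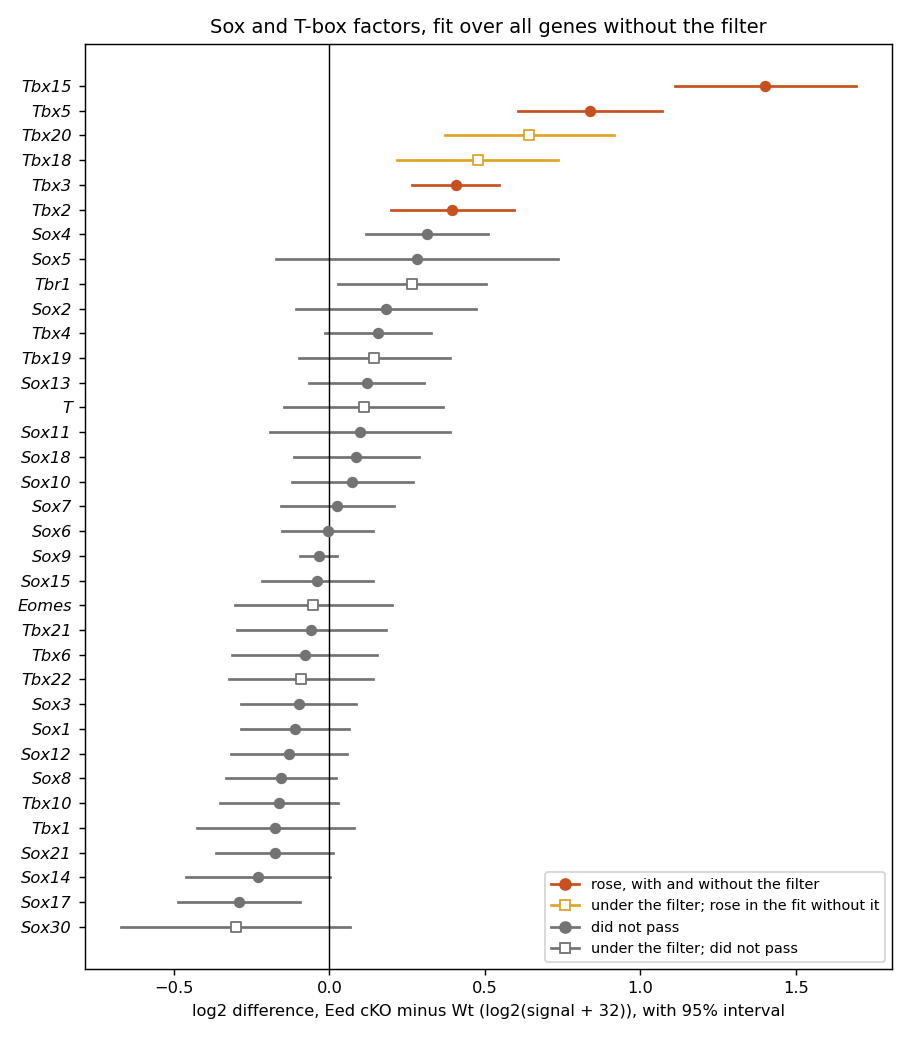
Log2 difference, Eed cKO minus Wt, of the 35 members in the fit over all genes without the filter, with 95% intervals as lines; orange marks genes that rose with and without the filter, yellow the genes under the filter that rose without it, and grey those that did not pass, with squares for genes under the filter. The 6 genes with the highest differences are all T-box genes, from 1.40 for Tbx15 to 0.40 for Tbx2.

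Genes on either side of the T-box genes that rose were read beside them. The nearest 2 measured protein-coding genes on each side of Tbx15, of the Tbx3 and Tbx5 pair, of the Tbx2 and Tbx4 pair, of Tbx18 and of Tbx20 make 20 genes, chosen after the members' values were seen. Of these 14 passed the filter, 0 rose and 2 fell, and without the filter 0 of 20 rose and 1 fell by limma's adjusted p. Over all genes 9.63% rose and 5.98% fell with the filter, and 6.26% and 3.89% without it, and counts over this few genes are not read against these shares. At an unadjusted p under 0.05, 1 of the 14 was higher (Med13l) and 3 were lower. Wars2 and Spag17, on either side of Tbx15, differed by -0.07 (adjusted p = 0.675) and 0.08 (0.727 without the filter). Med13l, next to Tbx3, differed by 0.11 (adjusted p = 0.144) and Rbm19, next to Tbx5, by 0.03 (0.869). The 2 that fell were Spring1, beyond Med13l, by 0.25 (adjusted p = 0.0430, and 0.0535 without the filter), and Nt5e, next to Tbx18, by 0.26 (0.0249).

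**Figure D3:**
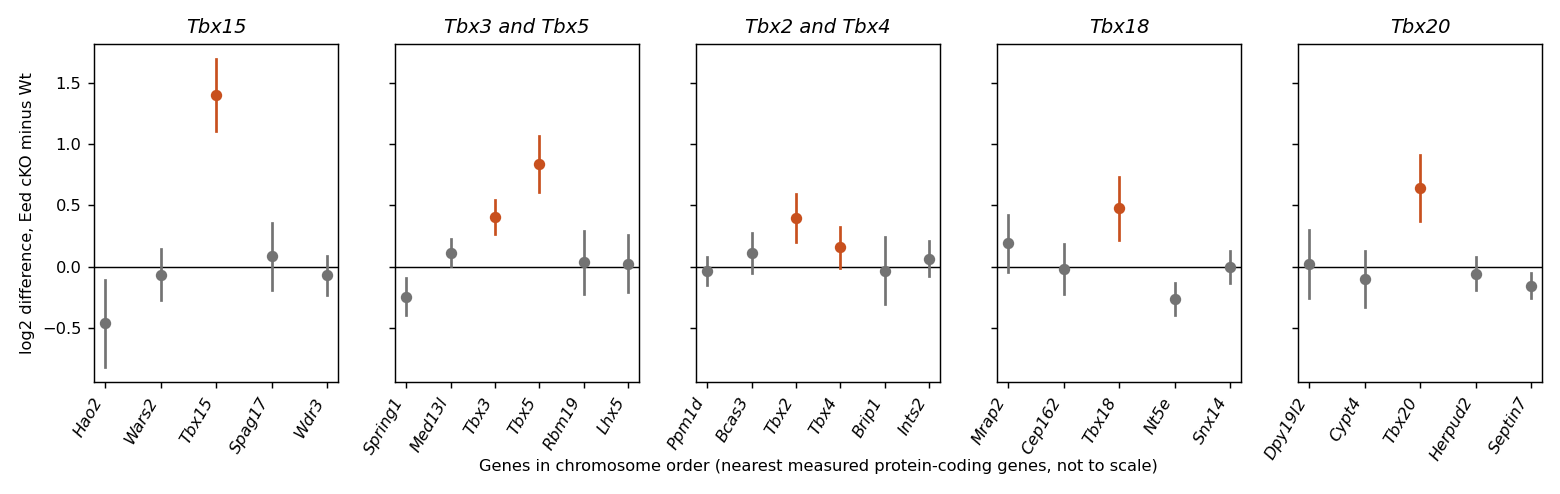
Log2 difference, Eed cKO minus Wt, with its 95% interval in the fit without the filter, for T-box genes (orange) and the nearest measured protein-coding genes (grey) in chromosome order, not to scale. The highest grey point is at 0.19, below the T-box genes that rose, for which the loci were chosen. It lies above Tbx4 (0.16), which did not pass.

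In the chondrocyte trio of Sox factors no change was found. Sox9, of group E, had signals of 28243 and 27918 in Wt and 27695 and 27159.8 in Eed cKO cells. Both Eed cKO arrays were the lower ones, by an amount (-0.03, SE 0.03, adjusted p = 0.431) whose 95% interval ran from -0.10 to 0.03. The highest signal of any gene on any array was 52469, so Sox9 lay in the upper part of the range of the arrays. Sox6 had 9262 and 9984 in Wt and 9091 and 10094 in Eed cKO cells, with a difference of -0.01 (SE 0.06, adjusted p = 0.964, 95% interval -0.15 to 0.14).

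Sox5 varied more than any other member that was tested (SE 0.20). It had 7287 and 5417 in Wt and 9391 and 6228 in Eed cKO cells, so replicate 1 was the higher array in both groups and the groups overlapped. The difference was 0.28 (adjusted p = 0.396), and its 95% interval from -0.19 to 0.76 leaves room for an increase as large as that of Tbx3. The difference was 0.58 without Eed cKO 2 (adjusted p = 0.0443), -0.01 without Eed cKO 1 (0.966) and 0.07 without Wt 2 (0.881). Sox13, the third member of group D, had both Eed cKO arrays higher (0.12, SE 0.08, adjusted p = 0.364).

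The partners of Sox9 in group E did not pass either. Sox8, which is also expressed in cartilage, had 4429 and 4952 in Wt and 4010.3 and 4405 in Eed cKO cells (-0.15, SE 0.08, adjusted p = 0.224). Sox10, a factor of neural crest and Schwann cells, had 703 to 770.2 (0.07, adjusted p = 0.593).

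Sox4 and Sox17 lay just outside the threshold, in opposite directions, and were named after their values were seen. Sox4, of the group C factors of mesenchymal and neural progenitors, had 1004 and 1087 in Wt and 1249.9 and 1366 in Eed cKO cells (0.31, SE 0.09, adjusted p = 0.0505). Leaving out Eed cKO 1 took it past the threshold (0.0295), as did averaging the probe sets of each gene (0.0496), which changes no value of Sox4 itself. Sox11 and Sox12, of the same group, had differences of 0.10 and -0.13 (adjusted p = 0.654 and 0.334). Sox17, an endothelial and endoderm factor of group F, had 1124 and 1015 in Wt and 874 and 861 in Eed cKO cells (-0.29, SE 0.08, adjusted p = 0.0610). After quantile normalization it fell by 0.32 (adjusted p = 0.0467). Sox7 and Sox18, the other factors of that group, had differences of 0.03 and 0.09 (adjusted p = 0.861 and 0.555).

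None of the Sox factors of neural tissue, muscle progenitors and germ cells passed the test. In group B1, which holds neural progenitors in their state, Sox1, Sox2 and Sox3 had differences of -0.11, 0.18 and -0.10, and the smallest adjusted p was 0.376. In group B2 both Eed cKO arrays of Sox14 and of Sox21 were lower, by differences of -0.23 (SE 0.10, adjusted p = 0.179) and -0.18 (SE 0.08, adjusted p = 0.178). Sox15, which acts in muscle progenitors, differed by -0.04 (adjusted p = 0.778), and Sox30, a factor of sperm development, by -0.30 (SE 0.16, adjusted p = 0.291 without the filter), its Eed cKO arrays at 199 and 286 below Wt arrays at 307 and 297.

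Cartilage genes that Sox9 binds or drives with Sox5 and Sox6 moved in both directions, and more of them were lower. Both Eed cKO arrays lay below both Wt arrays for 15 of the 22 listed genes and above them for 3. Over all genes 27.7% lay below and 27.6% above. The summed signal of the list was 452790 and 460129 in Wt and 441753 and 432919 in Eed cKO cells. All 22 listed genes were tested, and 3 of them rose and 5 fell. Over all genes 9.63% rose and 5.98% fell. For the other 14 the test was not passed, and the median log2 difference was -0.07 against 0.00 over all genes tested. Nkx3-2, a repressor of chondrocyte maturation, rose from 1719 and 1740.3 in Wt to 3288 and 3547 in Eed cKO cells, by 0.97 (SE 0.07, adjusted p = 0.00037). The matrix adaptor genes Matn4 and Matn1 rose by 0.75 (adjusted p = 0.00325) and 0.56 (0.0136). Scrg1, a gene of maturing cartilage cells, fell by 0.49 (SE 0.04, adjusted p = 0.000715) and the chondroitin sulfotransferase gene Chst11 by 0.20 (0.00853). Acan, which encodes the core protein of cartilage proteoglycan, fell from 36263 and 37469 to 34446 and 33267, by 0.12 (adjusted p = 0.0310), while Col2a1 differed by -0.02 (0.610). Wwp2 and Cnmd also fell, by 0.15 and 0.12.

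Among genes that act with T-box factors in patterning the limb and body wall, 17 of 21 listed were tested, of which 3 rose, 1 fell and 13 did not pass, beside the same 9.63% and 5.98% over all genes. Osr1, a zinc finger factor of limb and lateral mesenchyme, went from 845 and 859 in Wt to 2402 and 1931 in Eed cKO cells, an increase of 1.31 (SE 0.11, adjusted p = 0.000749). Msx2, a homeobox factor downstream of BMP signals, rose by 0.84 (adjusted p = 0.00134). Its Wt signals of 540 and 572 lay under the filter value. Like Tbx15, Msx2 was tested because its Eed cKO arrays, at 1062 and 985, raised its mean. It also rose in the fit without the filter (adjusted p = 0.00126). Alx1 fell by 0.38 (adjusted p = 0.00398). Fgf10, the growth factor that Tbx5 and Tbx4 switch on in the limb bud, differed by -0.04 (adjusted p = 0.768), and Hand2, Pitx1 and Fgf8 did not pass.

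Some markers of other cells that rib cartilage can carry along also differed between the groups. The counts here and in the next paragraph stand beside 9.63% of all genes tested that rose and 5.98% that fell. Over all genes 27.6% were higher and 27.7% lower on both Eed cKO arrays. Of 10 fibroblast and perichondrium markers 5 rose and 1 fell, and their summed signal was 92589 and 99593 in Wt and 102823 and 111631 in Eed cKO cells. Prrx1 rose by 0.73 (adjusted p = 0.000152), Pdgfra by 0.80 (0.00109) and Thy1 by 0.53 (0.00866), and Dcn fell by 0.25 (0.00914). Col1a1 and Col1a2 rose by 0.32 and 0.31 (adjusted p = 0.0481 and 0.0471), calls that were lost without the filter (0.0536 and 0.0517). Postn, Fap, Col3a1 and Lum did not pass, with differences of 0.23, 0.12, 0.01 and -0.06. All 10 had signals of 1258 or more on every array. Tbx15 and Tbx18 are expressed in such mesenchyme, and the part of these cells in their increases was not tested. Of 8 skeletal muscle markers, 6 of them tested, Des rose by 0.73 (adjusted p = 0.00577) and Myod1 by 0.45 (0.0136), and the other 4 did not pass. The groups overlapped for 6 of the 8, among them Acta1 (-0.07) and Ckm (-0.05), and the summed signal was 10732 and 10735 in Wt and 10706 and 12612 in Eed cKO cells.

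Of 6 heart muscle markers 2 were tested, Tnnt2 (-0.20, adjusted p = 0.128) and Nkx2-5 (-0.08, 0.585), and neither passed. The 6 had a summed signal of 6769.7 and 6763 in Wt and 5967 and 6389 in Eed cKO cells, and the part of heart cells in the values of Tbx5 and Tbx20 was not tested. Of 10 endothelial markers, 8 of them tested, Cdh5 rose by 0.29 (adjusted p = 0.0468, and 0.0554 without the filter) and none fell. Their summed signal was 9132 and 8946 in Wt and 9957 and 10247 in Eed cKO cells, and the part of endothelial cells in the values of Sox17 was not tested. Of 8 Schwann cell markers, 6 of them tested, Mbp rose by 0.48 (adjusted p = 0.0153), and the summed signal, 6655 and 7188 in Wt, was 7572 and 8256 in Eed cKO cells. The single lymphocyte marker, the single neuron marker and the 4 epithelial markers that passed the filter did not pass the test. Epcam (0.56, adjusted p = 0.0514) and Cdh1 (0.29, 0.0501), both epithelial, lay just outside the threshold. The 5 epithelial markers had summed signals of 4605 and 5284 in Wt and 5913 and 6377 in Eed cKO cells. Of these, 4 were higher on both Eed cKO arrays. Without the filter 1 of 8 lymphocyte markers, Cd3g, fell, by 0.46 (adjusted p = 0.0391), beside 3.89% of all genes. No marker of any list was at 0 on an array.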

How the data were processed

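RNA was measured on 4 Affymetrix arrays, 2 Wt and 2 Eed cKO, grouped by sample title. The deposited values are intensities on a linear scale that the authors summarised per probe set; a study supplement names dChip signals, and the normalization, the background correction and the build were not given in the sources used here. Array medians were already level, so nothing further was applied. Deposited columns holding ratios between the groups, the authors' own comparison, were not used. Arrays have no read depth; their number limits the precision. P-values measure only the spread between these samples.

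Probe sets (35512) were named through the deposited table and RefSeq (GRCm38.p6), 1 a gene by highest mean. Differences of log2(intensity + 32) were tested with limma 3.58.1 in R 4.3.3 (lmFit, eBayes with trend, two-sided, group only), after leaving out those whose mean lay below the 33rd percentile, with Benjamini-Hochberg over the genes kept. The fit had 2 residual degrees of freedom, raised to 6.91 by the shared variance. In simulated arrays 98.9% of genes changed by 1 on the log2 scale were called and 5.35% of calls were false. The simulated noise was drawn from the variance model of the fit itself. Changes smaller than 1, the size of most member differences, were not simulated. Full values are given for members past the threshold and for Sox5, Sox6, Sox9, Tbx2, Tbx3, Tbx4, Tbx5, Tbx15 and Tbx18, and up to 4 genes with the smallest p for each list. Members, lists and tests were chosen with earlier results of these data known. Other genes were named after their values were seen. The values of 1 gene of the limb and body wall list are not reported here. The methods' t-test (unpaired) was among the alternatives.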

Additional observations from a re-analysis of the deposited data

How the results depend on the processing

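Of 429 alternative values for single members, 410 stayed on the same side of the threshold, 12 lost a call, 7 gained one, and none with a call changed sign. Only 6 of the 35 members had a call to lose, so most of the 410 belong to members without one. Tbx15, Tbx5 and Tbx3 kept their calls under every setting that held them other than the methods' t-test, with adjusted p up to 0.00515, 0.00859 and 0.0251. Leaving out genes under the 50th percentile removed Tbx15 from the test. At an unadjusted p under 0.05 the methods' t-test called 5 of 27 members higher (Tbx15, Tbx5, Tbx3, Tbx2 and Tbx4). It called 2 lower (Sox21 and Tbx10), and 0 passed after Benjamini-Hochberg. Over all genes it left 2 higher and 2 lower after adjustment, from 1748 and 1201 before. The paper names this test but counted its upregulated array genes by fold change. Without the intensity trend 574 genes fell, against 894, and Tbx18 was lost (adjusted p = 0.0725). After quantile normalization 1 member fell, Sox17. With 1 array left out, 3 to 5 members rose and 0 to 0 fell, and over all genes 928 to 1562 rose and 385 to 1170 fell; the group left with 1 array is then assumed to vary like the other. Without Eed cKO 2, Sox30 fell by 0.53 in the fit without the filter (adjusted p = 0.0360). The combination of that fit with each other setting was added after the data were seen.

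Deviations of arrays with the same replicate number correlated at -0.06 over 14944 genes. With 2 arrays a group this is a single correlation, and it cannot tell whether the samples were paired. The paper states that control and Eed cKO animals were always compared as littermates. Which of the arrays, if any, share a litter is not known here. With a replicate block 6 members rose, Sox4 (adjusted p = 0.0351) and Sox5 (0.0160) beside the 4, and over all genes 1539 rose and 972 fell.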

Other observations

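Relatives of both families that the choice by name leaves out were read in the same fit, chosen after their values were seen. Mga, a factor with both a T-box and a basic helix-loop-helix domain, had signals of 4866 and 4885 in Wt and 4864 and 4729 in Eed cKO cells (-0.02 on the log2 scale, SE 0.05, limma adjusted p = 0.796). Sry, the Y-linked founder of the Sox family, had 1144 and 1078 in Wt and 930.3 and 821 in Eed cKO cells, a fall of 0.33 at the edge of the threshold (adjusted p = 0.0495, and 0.0584 without the filter). Its signals did not follow those of Ddx3y, another Y-linked gene. Those were 192 in Wt 1, 4664 in Wt 2, 4324 in Eed cKO 1 and 622 in Eed cKO 2. The Sry probe set thus gave signals of 821 to 1144 with and without high Ddx3y. Its highest signal was on Wt 1, where Ddx3y was lowest and Xist was 17819.7. The difference is therefore not read as a change in Sry RNA, and what the probe set binds was not tested. The noncoding transcript Sox1ot, which overlaps Sox1 on the genome, differed by -0.24 (adjusted p = 0.126), with both Eed cKO arrays lower, as for Sox1. Sox6os, the antisense transcript of Sox6, had signals of 472 to 545.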
